A study of Mus musculus with 26 samples.

Results

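ATF2-only sites are places in the genome of mouse fat cells where ChIP-seq listed the transcription factor ATF2 and listed none of CEBPa, CEBPb, JUND and FOSL2, the other factors mapped in the same cells. They were found by joining the peak windows of the 5 factor lists wherever windows of 200 bp overlapped by at least 1 bp, and by keeping the joined sites that held an ATF2 peak alone. The rule found 8376 such sites among 24174 ATF2 sites (34.6%) and among 49656 factor sites in all. Each of them held a single ATF2 peak. The sites were chosen by the presence of an ATF2 peak and the absence of the other 4 factors' peaks, so their ATF2 scores and their lack of other factors are a description and were not tested.

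The cells were 3T3-L1, an established mouse fibroblast line that was differentiated into adipocytes. Mature cells received no drug or 1 µM rosiglitazone, an agonist of the nuclear receptor PPARγ, dissolved in DMSO. The cofactor MED1 had 2 lists in each condition, and CBP, p300 and NCOR had 1 list in each condition. The 5 transcription factors were mapped in untreated cells only, so whether ATF2 stayed at these sites after rosiglitazone was not measured. The labels do not say whether untreated cells received DMSO alone, give no treatment time for ChIP-seq, and do not say whether the MED1 replicates came from separate cultures. The spread between MED1 lists may therefore be technical. Peak names carry 1 h in the second MED1 rosiglitazone list and 30 min in the NCOR rosiglitazone list, so times may differ between cofactors. Whether the cells were adipocytes could not be checked against marker genes, because the lists name no genes and no annotation of their genome build was used here.

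ATF2 is a basic leucine zipper protein that binds DNA as a dimer at cAMP response elements and related sites, and it is activated by stress-responsive kinases. It can pair with Jun family proteins, and JUND and FOSL2 are members of the AP-1 family that bind closely related sites. CEBPa and CEBPb are C/EBP factors that drive adipocyte differentiation. MED1 is a subunit of Mediator, the complex that links enhancer-bound factors to RNA polymerase II. CBP and p300 are paralogous histone acetyltransferases that act as coactivators, and NCOR is a corepressor that recruits histone deacetylase activity.

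Between 4656 and 28491 peaks stood in each of the 15 lists, 230453 together. Scores are the authors' own peak scores, and they were used only within a list. Read depth is unknown. Lists began at a score between 1.00 and 1.09, apart from the second MED1 rosiglitazone list, which began at 1.43. Scores of different lists are not on a common scale, so whether absence from that list was judged more strictly is unknown.

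ATF2-only sites lay in the lower part of the ATF2 list. Their ATF2 scores ran from 1.03 to 8.92 with a median of 1.41, and their median percentile within the list was 30.9. ATF2 sites that held another factor had a median score of 2.05. The median was 1.86 where the other factor was AP-1 alone, 1.80 where it was C/EBP alone and 2.76 where both families were listed. Of the ATF2-only sites, 158 (1.89%) were among the top 10% of the list by score, against 2295 (14.5%) of the ATF2 sites with another factor.

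The ATF2-only site with the highest ATF2 score was chr11:102949100-102949299 (build mm8, as are all positions here), at 8.92. It was held by 4 of the 10 cofactor lists, with NCOR scores of 2.07 untreated and 3.16 with rosiglitazone. The next, chr8:87139771-87139970, had an ATF2 score of 8.79 and was held by both NCOR lists and the CBP rosiglitazone list. A score of 8.40 placed chr3:10196362-10196561 after them, and that site was held by all 10 lists. The site at chr17:26253054-26253253 scored 8.28 and was held by both CBP and both NCOR lists, but by neither p300 list. In contrast, chr12:72749535-72749734, at 8.08, was held by no cofactor list. High ATF2 scores thus occurred with every cofactor and with none among these 5 sites.

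The first comparison asked how often each cofactor was listed at ATF2-only sites in the 2 conditions. NCOR was the cofactor listed most often in each condition. Every cofactor list held a smaller share of ATF2-only sites than of ATF2 sites with another factor, and a larger share than of factor sites without ATF2. With 1 list per condition for CBP, p300 and NCOR there was no replicate check, and intervals given here are 95% Wilson intervals that cover counting error only.

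NCOR was listed at 2736 ATF2-only sites in untreated cells (32.7%, interval 31.7 to 33.7) and at 3023 with rosiglitazone (36.1%, interval 35.1 to 37.1). Over all factor sites the shares were 34.8% and 37.4%. ATF2 sites with another factor had 63.3% and 65.6%, and factor sites without ATF2 had 17.8% and 20.4%. The ATF2-only share was thus near that of all factor sites in both conditions. The NCOR list itself was longer with rosiglitazone, 28491 peaks against 25136.

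CBP was listed at 1778 ATF2-only sites in untreated cells (21.2%, interval 20.4 to 22.1) and at 825 with rosiglitazone (9.85%, interval 9.23 to 10.5). All factor sites had 27.0% and 17.5%. ATF2 sites with another factor had 59.3% and 42.5%. The CBP share was lower in the rosiglitazone list in each of these groups, and that list was also shorter, 9515 peaks against 15383. With both CBP lists restricted to their 9515 highest peaks, the difference at ATF2-only sites went from -11.4 to 0.0836 percentage points and its sign turned, so no direction can be read from the CBP share.

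For p300, 1763 ATF2-only sites (21.0%, interval 20.2 to 21.9) were in the untreated list and 1666 (19.9%, interval 19.0 to 20.8) in the rosiglitazone list. The shares over all factor sites were 25.1% and 21.8%, and those of ATF2 sites with another factor were 53.5% and 45.3%. Both lists were read on the same sites, so overlap of these intervals does not compare the conditions. Of the ATF2-only sites, 742 were in the untreated p300 list alone and 645 in the rosiglitazone list alone. At equal list length the p300 difference at ATF2-only sites was 1.28 percentage points in place of -1.16, and the NCOR difference was -0.0716 in place of 3.43. Both signs turned, so the directions of these shares also depended on list length.

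MED1 was listed at 607 (7.25%) and 344 (4.11%) ATF2-only sites in the untreated lists of replicates 1 and 2. The rosiglitazone lists held 941 (11.2%) and 533 (6.36%). All factor sites had 9.87% and 7.68% untreated, and 12.4% and 9.09% with rosiglitazone. The mean share was 5.68% ± 2.22 (SD, n = 2) untreated and 8.80% ± 3.44 (SD, n = 2) with rosiglitazone, a difference of 3.12 percentage points. An exact two-sided permutation test gave p = 0.667, where 0.333 is the smallest p that 2 lists against 2 allow. The groups overlapped, since the first untreated list held more of the sites than the second rosiglitazone list. Within replicate number 1 the rosiglitazone share was higher by 3.99 percentage points and within number 2 by 2.26. The rosiglitazone lists were longer, 8069 and 7104 peaks against 5660 and 4656, and with all 4 lists restricted to their 4656 highest peaks the difference was 0.322 percentage points. Leaving out 1 MED1 list gave a difference of 4.69 points without the first untreated list, 1.55 without the second, 0.686 without the first rosiglitazone list and 5.56 without the second.

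**Figure D1:**
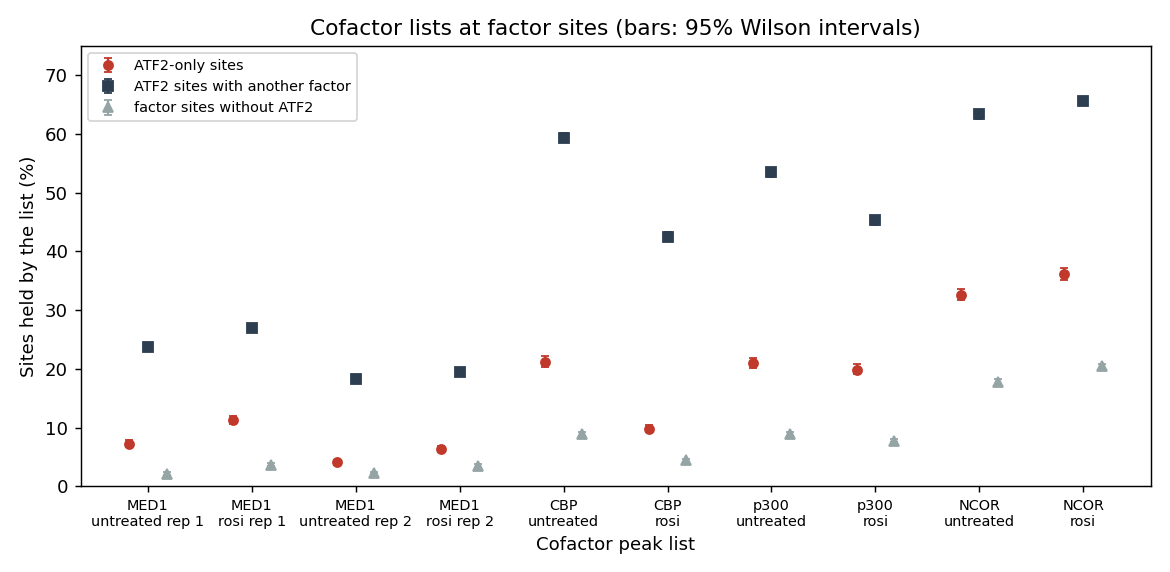
Percentage of sites held by each of the 10 cofactor lists, for ATF2-only sites (n = 8376, circles), ATF2 sites with another factor (n = 15798, squares) and factor sites without ATF2 (n = 25482, triangles). Bars are 95% Wilson intervals for counting error, and in every list the circle lies between the square and the triangle.

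Dividing the share of ATF2-only sites by the share of ATF2 sites with another factor, within 1 list, gives a relative share in which the length of that list enters both terms. For MED1 the relative share was 0.306 and 0.224 in the untreated lists and 0.417 and 0.326 with rosiglitazone. Both rosiglitazone values lay above both untreated values. The means were 0.265 ± 0.0579 and 0.371 ± 0.0640 (SD, n = 2 each), a difference of 0.106, with an exact two-sided permutation p of 0.333, the smallest p possible. The design could therefore not reach a threshold of 0.05.

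In the lists at full length the coactivators CBP and p300 differed in this ratio. It was 0.358 untreated and 0.232 with rosiglitazone for CBP, and 0.393 and 0.439 for p300. For NCOR it was 0.516 and 0.550. At equal list length the log2 ratio of rosiglitazone over untreated was 0.25 for MED1 (0.48 for the full lists), 0.27 for p300 (0.16) and 0.0156 for NCOR (0.0932), each positive, whereas for CBP it turned from -0.63 to 0.0913. The CBP ratio thus still depended on list length, and no direction can be read from it. The ATF2 list was also divided by score into 4 bins of 25% of its peaks, numbered from the lowest scores. In each bin the sign for MED1, CBP, p300 and NCOR was that of the full list. The bins used cofactor lists of full length, so they do not address list length. For NCOR the log2 values in bins 2 and 3 were only 0.0282 and 0.0261, so their sign carries little weight.

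**Figure D2:**
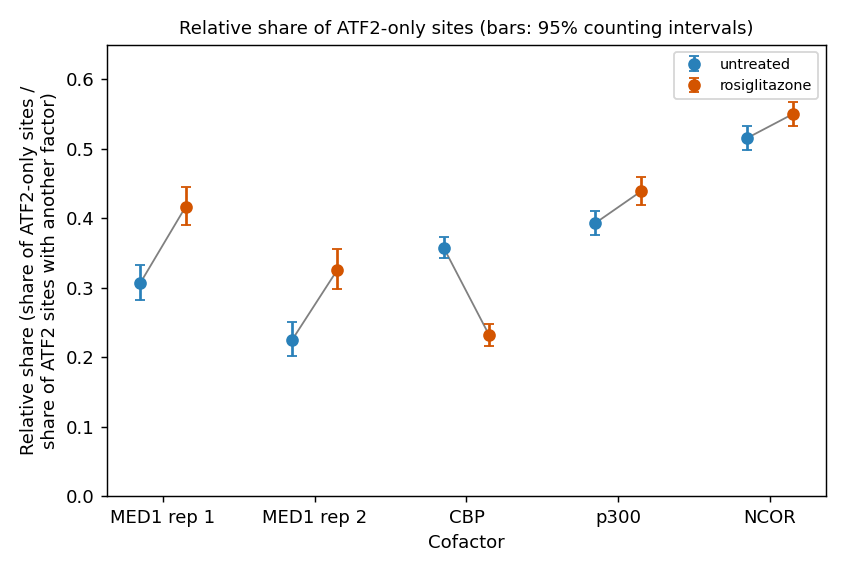
Relative share of ATF2-only sites, which is the percentage of ATF2-only sites held by a list divided by the percentage of ATF2 sites with another factor held by it, in untreated cells (blue) and with rosiglitazone (orange). Bars are 95% intervals for counting error and lines join lists with 1 replicate number or cofactor. MED1 goes from 0.306 to 0.417 and from 0.224 to 0.326, and CBP from 0.358 to 0.232. Lists are at full length. At equal list length the log2 ratio of rosiglitazone over untreated for CBP turned from -0.63 to 0.0913.

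Next, MED1 occupancy was sorted by condition at each site. Gained sites were in the 2 rosiglitazone lists and in no untreated list, lost sites were in the 2 untreated lists and in no rosiglitazone list, and constant sites were in all 4. ATF2-only sites held 97 gained (1.16%), 27 lost (0.322%) and 54 constant sites (0.645%). Over all factor sites the shares were 1.05%, 0.461% and 2.38%. The gained and lost shares were thus near those of all factor sites and the constant share was lower. Any MED1 list held 1607 ATF2-only sites (19.2%, against 21.3% of all factor sites), and 1038 of them (12.4% of ATF2-only sites, against 11.1% of all factor sites) were in a single MED1 list.

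Among gained and lost ATF2-only sites 78.2% were gained (interval 70.2 to 84.6, 97 of 124), against 62.1% (interval 57.7 to 66.4) at ATF2 sites with another factor. Factor sites without ATF2 had 84.7% (interval 78.3 to 89.5), so ATF2-only sites did not stand apart from them. The count of gained sites was 166 without the first untreated list, 137 without the second, 314 without the first rosiglitazone list and 552 without the second. The lost count was 160, 260, 52 and 34 in the same order. Without the first untreated list the gained share was 50.9% at ATF2-only sites and 46.1% at ATF2 sites with another factor. Without the second it was 34.5% (interval 30.0 to 39.3) and 35.1% (interval 32.7 to 37.6), so the groups did not differ beyond counting error there. Without the first rosiglitazone list the shares were 85.8% and 66.4%, and without the second 94.2% and 81.6%. At equal list length they were 71.1% and 44.3%, so that ATF2 sites with another factor had more lost than gained sites there. The gained share thus depended on which lists were used and on their length.

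The constant sites included the highest MED1 score of ATF2-only sites in each rosiglitazone list. At chr3:10196362-10196561 the MED1 scores were 6.01 and 5.78 untreated and 17.4 and 17.16 with rosiglitazone. The CBP scores there were 5.35 and 2.91, those of p300 4.41 and 4.31, and those of NCOR 8.15 and 4.84, untreated and rosiglitazone in turn. This site lay 5221 bp from the nearest peak of another factor. Scores of different lists are not on a common scale, so these pairs are given without a comparison.

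At chr13:37884417-37884616 the MED1 scores were 6.69 and 5.21 untreated and 10.66 and 13.11 with rosiglitazone, and all 10 lists held the site. The ATF2 score there was 2.18. Another constant site, chr6:30594146-30594345, had MED1 scores of 7.74, 3.88, 11.52 and 8.34 in the order untreated 1, untreated 2, rosiglitazone 1 and rosiglitazone 2. It carried the p300 scores 8.76 untreated and 11.36 with rosiglitazone, the highest score of ATF2-only sites in each of these lists. The constant sites chr9:50628530-50628729 and chr16:25140256-25140455 were held by 7 and 6 lists, and neither was in the untreated CBP or untreated p300 list. Their nearest peaks of another factor were 914 and 214 bp away.

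Of the gained sites, chr9:119030215-119030414 had MED1 scores of 2.99 and 5.96 in the rosiglitazone lists. The CBP and p300 rosiglitazone lists also held it, at 1.92 and 1.70, and their untreated lists did not. NCOR was listed there in both conditions, at 3.11 and 2.70. At chr13:103691730-103691929 MED1 scored 4.35 and 3.81, p300 was listed with rosiglitazone only, at 2.73, and CBP was in neither list. By contrast chr11:77261441-77261640, with MED1 at 5.80 and 3.10, held CBP and p300 in both conditions and NCOR in neither. Its nearest peak of another factor was 319 bp away. Gained MED1 therefore occurred both where p300 was listed in rosiglitazone alone and where it was listed throughout. At chr15:84468663-84468862 and chr15:93935322-93935521 NCOR was again listed in both conditions.

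Lost sites showed other combinations. At chr4:97416001-97416200 the untreated MED1 scores were 2.93 and 1.80, and CBP, p300 and NCOR were listed in both conditions. The same held at chr11:35567265-35567464, where MED1 scored 2.85 and 2.56 and the nearest peak of another factor was 203 bp away. At chr5:125754908-125755107 the 2 untreated MED1 lists, at 1.80 and 2.37, were the only cofactor lists. Loss of the MED1 call was thus seen with and without other cofactors at these sites.

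The other cofactors were then counted by MED1 class. At the 97 gained sites p300 was listed at 53.6% untreated and 72.2% with rosiglitazone, with 29 sites in the rosiglitazone list alone and 11 in the untreated list alone. At the 27 lost sites p300 was listed at 63.0% and 44.4%, with 1 site in the rosiglitazone list alone and 6 in the untreated list alone. At the 54 constant sites the p300 shares were 77.8% and 92.6%, with 9 sites in the rosiglitazone list alone and 1 in the untreated list alone. The p300 share was thus higher in rosiglitazone at constant as well as gained sites. Over all factor sites p300 was listed at 65.7% and 78.4% of gained, 83.4% and 65.5% of lost and 96.0% and 96.8% of constant sites, the same order of conditions in each class.

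CBP was listed at 48.5% of gained sites untreated and 41.2% with rosiglitazone, and at 55.6% and 40.7% of lost sites. Over all factor sites the CBP shares were 60.7% and 56.5% of gained and 78.6% and 56.8% of lost sites. The CBP share was lower in the rosiglitazone list at gained and lost sites alike, at ATF2-only sites and over all factor sites. That list was also the shorter one. CBP was not counted by MED1 class at equal list length, so no direction is read from these shares. NCOR was listed at 79.4% of gained sites in each condition, and at 59.3% and 63.0% of lost sites. Over all factor sites NCOR was listed at 83.9% and 87.2% of gained and at 79.0% and 82.1% of lost sites.

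Single-list p300 calls leaned towards untreated cells in both ATF2 groups, and less so at ATF2-only sites. ATF2-only sites had p300 in both lists at 1021 sites, in the untreated list alone at 742 and in the rosiglitazone list alone at 645. These were 12.2%, 8.86% and 7.70% of ATF2-only sites, against 16.6%, 8.55% and 5.22% of all factor sites. In all, 2408 ATF2-only sites (28.7%, against 30.3% of all factor sites) held p300 in either condition. Of the sites in a single p300 list, 46.5% (interval 43.9 to 49.1) were in the rosiglitazone list, against 31.2% (interval 29.6 to 32.7) of such ATF2 sites with another factor. The share was 43.4% (interval 41.3 to 45.6) at factor sites without ATF2 and 42.9% (interval 38.4 to 47.6) at sites with JUND or FOSL2 alone, whose intervals overlapped that of ATF2-only sites. The higher share was thus also present where ATF2 was not listed. It was 32.3%, 33.1% and 27.1% at ATF2 sites with AP-1, with C/EBP and with both.

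The rosiglitazone share of single-list p300 sites was below 50% in both groups, and the lower one at ATF2 sites with another factor, in each of the 4 score bins. In bins 1 to 4, from the lowest scores to the highest, the rosiglitazone share was 48.7%, 44.1%, 46.1% and 48.8% at ATF2-only sites. At ATF2 sites with another factor it was 32.6%, 30.7%, 29.2% and 32.7%. With the p300 lists at equal length the shares were 54.0% and 36.0%, so the lean at ATF2-only sites turned towards rosiglitazone there while the order of the groups was the same. Each condition had 1 p300 list, so whether a second pair of libraries would show the difference was not tested.

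**Figure D3:**
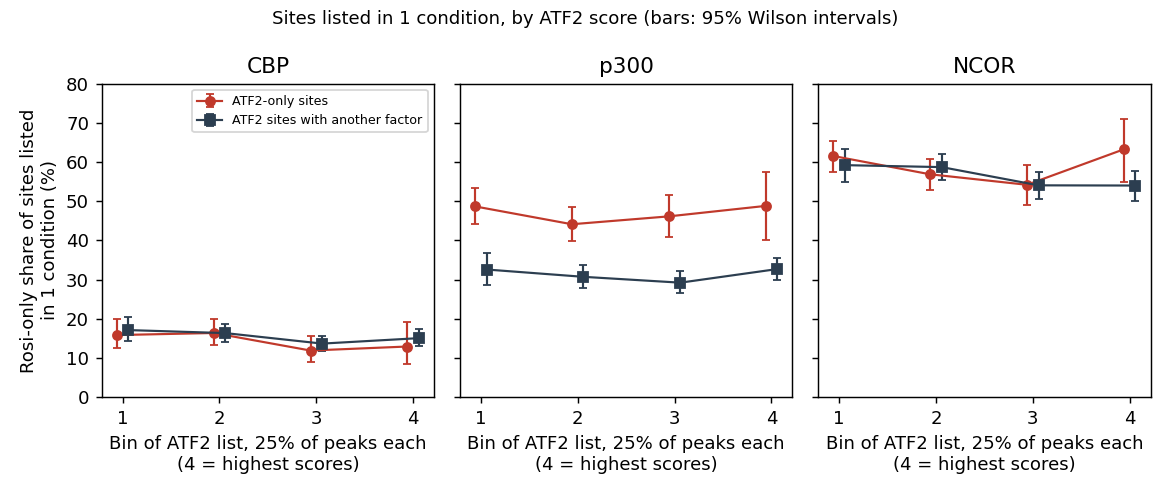
Percentage of sites held by a single list of the cofactor that were held by its rosiglitazone list, by score bin of the ATF2 list (25% of its peaks each, bin 1 with the lowest scores), for ATF2-only sites (circles) and ATF2 sites with another factor (squares). Bars are 95% Wilson intervals; for p300 the circles lie at 44.1 to 48.8% and the squares at 29.2 to 32.7%, while for CBP and NCOR the intervals overlap in all 4 bins.

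The highest-scoring p300 call in rosiglitazone alone was at chr17:28240172-28240371, with a score of 5.59 and no other cofactor list. The second, chr2:60671934-60672133, scored 4.92 and also held CBP and NCOR in both conditions and MED1 in the first rosiglitazone list. Among p300 calls in untreated cells alone, chr17:74615818-74616017 scored 4.35 and chr6:72146135-72146334 scored 4.30. The former also held NCOR in untreated cells alone, at 1.38, and no CBP, while the latter held CBP and NCOR in both conditions. The nearest peak of another factor was 218 bp from chr17:74615818-74616017 and 365 bp from chr17:28240172-28240371. The p300 call thus differed between conditions at chr2:60671934-60672133 and chr6:72146135-72146334 while their CBP and NCOR calls did not.

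MED1 was set beside the p300 calls at ATF2-only sites. At the 645 sites with p300 in rosiglitazone alone, MED1 was listed at 10.9% and 5.74% untreated and at 24.7% and 12.7% with rosiglitazone. Both rosiglitazone values exceeded both untreated values, with a difference in means of 10.4 percentage points. At the 742 sites with p300 in untreated cells alone the MED1 shares were 10.9% and 5.39% untreated and 15.0% and 6.87% with rosiglitazone, a difference of 2.76 points with overlapping groups. At the 1021 sites with p300 in both lists they were 32.8% and 11.6% untreated and 45.8% and 19.6% with rosiglitazone, a difference of 10.5 points with overlapping groups. The MED1 difference was thus as large where p300 was listed throughout as where it was listed in rosiglitazone alone. At the 5968 sites with p300 in neither list the MED1 shares were 2.03% and 2.50% untreated and 3.40% and 3.35% with rosiglitazone, without overlap. The exact two-sided permutation p was 0.333 for p300 in rosiglitazone alone and for p300 in neither list. It was 0.667 for the other sets, and 0.333 is the smallest possible. At ATF2 sites with another factor and p300 in rosiglitazone alone, MED1 was listed at 12.6% and 12.7% untreated. With rosiglitazone it was listed at 24.3% and 17.6% of them, also without overlap. The differences between these sets of sites were not tested.

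CBP had 627 ATF2-only sites in both lists, 1151 in the untreated list alone and 198 in the rosiglitazone list alone. These were 7.49%, 13.7% and 2.36% of ATF2-only sites, against 15.0%, 12.0% and 2.41% of all factor sites. Either list held 1976 of them (23.6%, against 29.4%). The share of untreated CBP sites that were also in the rosiglitazone list was 35.3% (interval 33.1 to 37.5) at ATF2-only sites and 65.4% at ATF2 sites with another factor. It was 31.6% at factor sites without ATF2, a value close to that of ATF2-only sites. With CBP lists of equal length the first 2 shares were 54.4% and 76.4%. The order of the groups was the same at equal length, whereas the overall CBP difference was not. In score bins 1 to 4 of the ATF2 list, with full CBP lists, the share was 27.4%, 33.2%, 37.2% and 50.0% at ATF2-only sites. At ATF2 sites with another factor it was 39.1%, 52.3%, 60.7% and 79.0%. The order was the same in each bin, but no bin had a difference as large as that of all sites. The difference was smallest in bin 1, which held the most ATF2-only sites.

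Untreated CBP at chr5:103869760-103869959 scored 5.12, and the site was absent from the rosiglitazone CBP list and from all MED1 and p300 lists. At chr5:107400560-107400759 untreated CBP scored 4.65 beside MED1 scores of 3.08 and 3.41 untreated and 4.77 in the second rosiglitazone list. In the opposite direction, CBP was listed in rosiglitazone alone at chr2:90828358-90828557, with a score of 2.58. At chr11:116015358-116015557 it scored 2.53 in rosiglitazone, where p300 was also listed in rosiglitazone alone at 4.38. MED1 was listed at the sites of chr5:107400560-107400759 and chr11:116015358-116015557 and not at the other two.

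CBP and p300 calls often differed at the same site. Of the 1151 ATF2-only sites with CBP in untreated cells alone, p300 was in neither list at 520 (45.2%) and in both at 313. It was in the untreated list alone at 194 (16.9%) and in the rosiglitazone list alone at 124 (10.8%). At the 3244 such ATF2 sites with another factor, 37.8% had p300 in neither list, 24.9% in the untreated list alone and 7.95% in the rosiglitazone list alone. Of the 645 ATF2-only sites with p300 in rosiglitazone alone, 416 (64.5%) held CBP in neither list. CBP was in the untreated list alone at 124 (19.2%) of them and in the rosiglitazone list alone at 42 (6.51%). At such ATF2 sites with another factor these shares were 40.3%, 24.1% and 7.20%. CBP was also in neither list at 442 (59.6%) of the 742 ATF2-only sites with p300 in untreated cells alone, against 29.0% of such ATF2 sites with another factor. It was in neither list at 6400 of all 8376 ATF2-only sites. These joint counts were not made over all factor sites.

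NCOR had the highest share of untreated sites that were also listed with rosiglitazone. Both lists held 2027 sites, the untreated list alone 709 and the rosiglitazone list alone 996. These were 24.2%, 8.46% and 11.9%, against 28.6%, 6.17% and 8.81% of all factor sites. Either list held 3732 of them (44.6%, against 43.6%). Of the untreated NCOR sites 74.1% were also in the rosiglitazone list, against 87.7% at ATF2 sites with another factor and 75.3% at factor sites without ATF2. In score bins 1 to 4 of the ATF2 list this share was 69.8%, 69.8%, 76.9% and 87.1% at ATF2-only sites. At ATF2 sites with another factor it was 75.9%, 82.2%, 86.6% and 93.2%, a smaller difference in each bin than over all sites. Of sites in a single NCOR list, 58.4% were in the rosiglitazone list at ATF2-only sites and 56.3% at ATF2 sites with another factor.

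NCOR was listed in rosiglitazone alone at chr6:37533062-37533261, with a score of 5.21, where CBP and p300 were listed in untreated cells alone at 3.18 and 3.58. That site lay 223 bp from the nearest peak of another factor. At chr7:25095188-25095387 NCOR scored 5.12 in rosiglitazone alone, beside MED1 in the second rosiglitazone list and CBP in the untreated list. NCOR in untreated cells alone scored 5.46 at chr9:121877141-121877340 and 4.35 at chr17:27548277-27548476. Both of those sites held CBP and p300 in both conditions. Corepressor calls thus differed between conditions both with and without a difference in coactivator calls.

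Combinations of CBP, p300 and NCOR were counted at each site. In untreated cells 4589 ATF2-only sites (54.8%) held none of the 3, and the most frequent call was NCOR alone, at 1210 sites (14.4%). All 3 were listed at 688 sites (8.21%), against 5962 (37.7%) of the ATF2 sites with another factor. With rosiglitazone NCOR alone was listed at 1742 ATF2-only sites (20.8%), p300 with NCOR at 652 (7.78%) and all 3 at 440 (5.25%). The combination of p300 with NCOR was then at 5.87% of all factor sites and 9.60% of ATF2 sites with another factor. Over all factor sites none of the 3 was listed at 54.7% untreated and 56.4% with rosiglitazone, NCOR alone at 11.2% and 17.0%, and all 3 at 14.9% and 11.2%. The share of ATF2-only sites with none of the 3 was thus near that of all factor sites. Where ATF2 was accompanied by another factor, all 3 were the most frequent combination in both conditions, at 29.0% with rosiglitazone. With rosiglitazone the NCOR list was longer and the CBP and p300 lists were shorter. Combinations were not counted at equal list length, so no shift between conditions is read from them.

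Over all 10 lists 3535 ATF2-only sites (42.2%) held no cofactor in either condition. The share was 46.4% over all factor sites, 14.0% at ATF2 sites with another factor and 81.8% at sites with JUND or FOSL2 alone. All 10 lists held 26 ATF2-only sites (0.310%, against 1.96% of all factor sites) and 913 ATF2 sites with another factor (5.78%). Besides chr3:10196362-10196561 and chr6:30594146-30594345, the 26 sites included chr16:37874827-37875026, where MED1 scored 2.25 and 2.75 untreated and 6.65 and 5.01 with rosiglitazone.

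**Figure D4:**
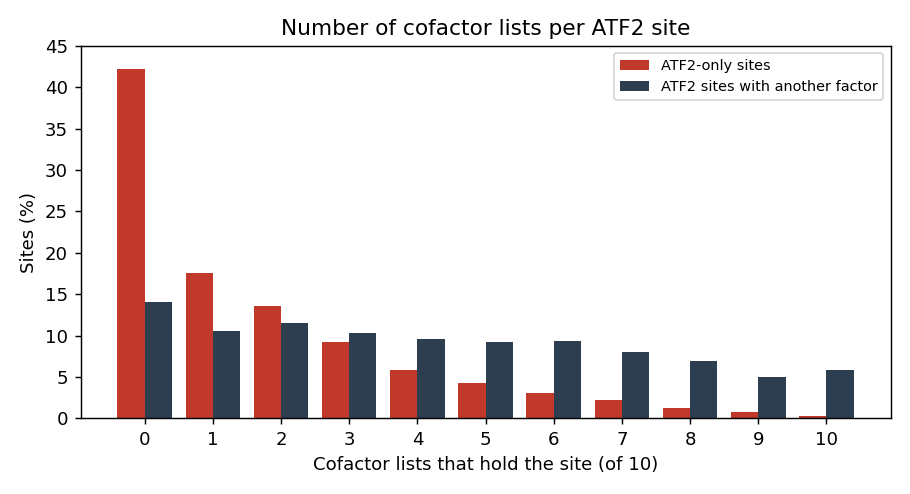
Percentage of sites by the number of cofactor lists, from 0 to 10, that held them, for ATF2-only sites and ATF2 sites with another factor. Of ATF2-only sites 42.2% are at 0 lists and 0.310% at 10, against 14.0% and 5.78% of the others.

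The share without a cofactor depended on the ATF2 score. It was 54.2%, 40.1%, 27.8% and 25.2% at ATF2-only sites in score bins 1 to 4 of the ATF2 list, which held 3359, 2750, 1556 and 711 of them. At ATF2 sites with another factor it was 31.6%, 19.0%, 10.4% and 5.58%. In untreated cells CBP was listed at 13.3% of ATF2-only sites in bin 1 and 36.0% in bin 4, against 32.6% and 77.0% of ATF2 sites with another factor. Within each bin the ATF2-only sites were more often without a cofactor than ATF2 sites with another factor.

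Where a cofactor was listed at an ATF2-only site, its score was lower in the list than at other ATF2 sites. The median percentile of the cofactor score within its list ran from 32.7 for CBP with rosiglitazone to 50.8 for NCOR with rosiglitazone. At ATF2 sites with another factor the medians ran from 58.0 to 70.8. The median distance from the ATF2 centre to the cofactor centre was 29 to 42 bp over the 10 lists, against 24 to 36 bp at ATF2 sites with another factor. At ATF2-only sites the overlap rule allows at most 199 bp, so closeness is in part set by the rule. ATF2-only sites have a single window, while sites with several factors can be longer and so present more room for an overlap. Counting only cofactor windows on the ATF2 window itself gave a rosiglitazone share of single-list p300 sites of 31.5% at ATF2 sites with another factor. The 46.5% at ATF2-only sites could not change, since each of them has that window alone.

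ATF2-only sites were often near peaks of other factors without overlapping them. The nearest peak centre of another factor was at a median distance of 6332.5 bp, 1519 sites (18.1%) had one within 1000 bp, and 5087 (60.7%) within 10000 bp. By factor, the median was 12450.5 bp for JUND, 14239 bp for FOSL2, 22197.5 bp for CEBPb and 27883 bp for CEBPa. The AP-1 factors were thus the nearer neighbours, and their lists were also longer than the C/EBP lists.

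Cofactors were listed less often at the more distant sites. In the bins 200 to 1000 bp, to 10000 bp, to 100000 bp and beyond, which held 1519, 3568, 3066 and 223 sites, untreated CBP was listed at 30.9%, 23.4%, 14.4% and 13.5%. Untreated NCOR was listed at 40.2%, 34.0%, 28.4% and 17.5%, and untreated MED1 of replicate 1 at 12.3%, 8.41%, 3.82% and 1.35%. The share with no cofactor list was 31.3%, 40.1%, 48.7% and 60.5%. The median ATF2 score was 1.48, 1.41, 1.41 and 1.35 in these bins, highest in the nearest and lowest in the farthest. Whether the ATF2 score has a part in the difference with distance was not tested.

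**Figure D5:**
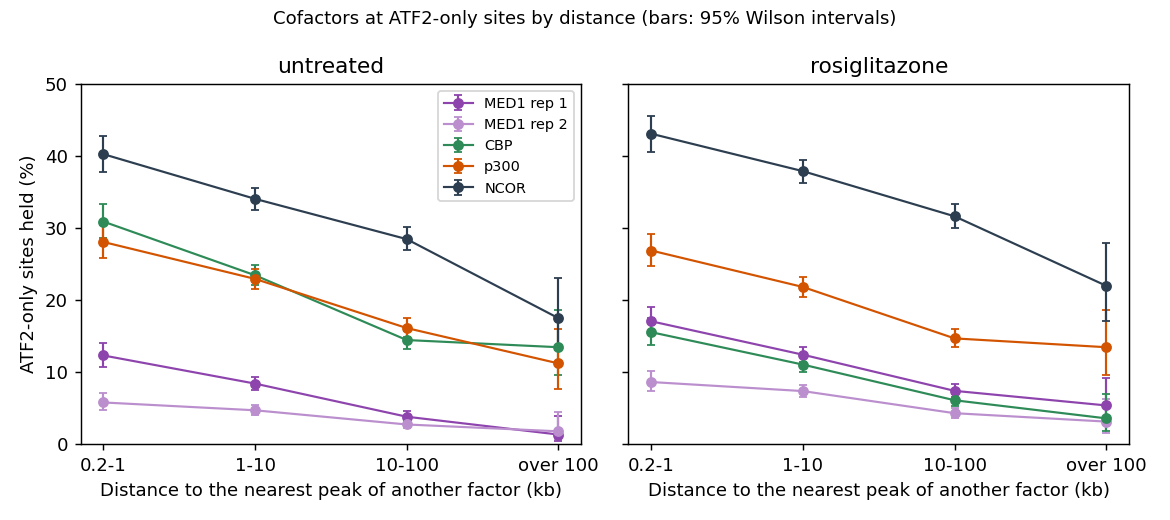
Percentage of ATF2-only sites held by each cofactor list against the distance from the ATF2 peak centre to the nearest peak centre of CEBPa, CEBPb, JUND or FOSL2 (kb, 4 bins), in untreated cells (left) and with rosiglitazone (right). Bars are 95% Wilson intervals; untreated NCOR goes from 40.2% in the nearest bin to 17.5% in the farthest, which holds 223 sites.

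The rule has a limit at 200 bp between peak centres, and few sites lay at it. There were 330 ATF2-only sites with the nearest other factor at 200 to 299 bp. Of the ATF2 peaks at excluded sites, 632 had the nearest at 100 to 199 bp and 15184 within 99 bp. Just inside were chr11:102224658-102224857, with an ATF2 score of 2.76, and chr1:181382844-181383043, with 2.18. Each was held by 3 cofactor lists, both NCOR lists among them. Just outside, with centres 199 bp apart, were chr12:32640108-32640506, with ATF2 at 1.86 and JUND at 1.16, and chr1:90962857-90963260, with ATF2 at 1.28, JUND at 5.69 and FOSL2 at 6.34.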

How the data were processed

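ChIP-seq peak lists of 15 libraries were used. The 10 GRO-seq samples and 1 input sample of the 26 were not analysed here. The authors deposited 1 list per library, each peak being a 200 bp window with a score of unstated scale. Tools named were HOMER, bedtools and Bowtie, and the build was mm8, per the submitters' processing notes. Their thresholds and versions were not given in the sources used here. Read depth is unknown, so scores were used only to rank peaks within a list.

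Factor peaks were joined where windows overlapped by at least 1 bp, chained. A cofactor list held a site when one of its windows overlapped a factor window of the site. Shares carry 95% Wilson intervals for counting error only. Sites are not replicates, so conditions were tested over lists, by exact two-sided permutation for MED1 alone. MED1 shares by the state of each other cofactor were computed for 24 sets of sites, and no p was below 0.333. The members, groups and tests were chosen with earlier results of these data known. Sites named were the 5 highest by ATF2 score, the 5 highest by mean score percentile in each MED1 class, the 2 highest rosiglitazone-only and untreated-only sites of each other cofactor, the 3 held by most lists, and 2 on each side of the distance limit.

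Alternatives were an overlap of 100 bp, the higher-scoring 50% of peaks per list, equal lengths for the lists of a cofactor, no other factor within 1000 bp, cofactor centres within 500 bp, each MED1 list left out, and the replicate number as a block. Relative shares, the ATF2 score bins, cofactor windows on the ATF2 window itself and MED1 by cofactor state were chosen after seeing the data. No sequences or genes are given, since no genome or annotation of build mm8 was used here. The code was tested on simulated data. Python 3.11.15, numpy 2.4.6, pandas 2.3.3 and scipy 1.17.1 were used.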

Additional observations from a re-analysis of the deposited data

How the results depend on the processing

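Of the alternatives run, 79 main values stayed within the spread, interval or 1.5 times the count of the main setting, 33 went beyond it and 4 turned sign. The 79 include counts and shares of ATF2-only sites on the ATF2 window itself, which that setting could not change. Keeping the upper 50% of each list left 4810 ATF2-only sites, 2297 of them without a cofactor list and 15 with MED1 lost, a p300 difference of -2.41 percentage points and a CBP relative share of -0.47 on the log2 scale. Lists of equal length left 59 gained MED1 sites and turned the sign of the CBP (0.0836), p300 (1.28) and NCOR (-0.0716) differences in share and of the CBP relative share (0.0913, log2). The log2 relative share was then 0.25 for MED1, 0.27 for p300 and 0.0156 for NCOR. The construction drops the weakest peaks of the longer list. Requiring no other factor within 1000 bp left 32 constant MED1 sites and a CBP difference of -10.5. Cofactor centres within 500 bp gave 90 and -12.5. By ATF2 score bin the log2 relative share of MED1 was 0.26, 0.28 and 0.40 (bins 1, 3 and 4), that of CBP -0.33 and -0.41 (bins 1 and 2), that of p300 0.33 (bin 1) and that of NCOR 0.0282 and 0.0261 (bins 2 and 3). The cause of these differences was not tested.

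Leaving out 1 MED1 list gave 137 to 552 gained, 34 to 260 lost and 61 to 123 constant sites, 3558 to 3600 sites without a cofactor list, a share difference of 0.686 to 5.56 percentage points and a log2 relative share of 0.28 to 0.73. These classes then ask for fewer lists. The lowest share difference was without the first rosiglitazone list and the highest without the second. With the replicate number as a block the MED1 share difference was 3.12 percentage points with an exact p of 0.5, the smallest that 2 pairs allow, and the unblocked test did not pass the threshold either. The block was run for this difference alone. Deviations of same-numbered MED1 lists correlated at r = 0.19 over ATF2-only sites, but the labels do not say that a number marks a shared culture or day. Of 27 named sites with a MED1 or cofactor class, 18 had the same class with an overlap of 100 bp and 18 with the higher-scoring 50% of peaks. The number was 27 at equal length, 15 with no other factor within 1000 bp and 20 with cofactor centres within 500 bp. On the ATF2 window itself it was 27, which was fixed in advance because each site has that window alone.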

Other observations

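ATF2-only sites made up 30.0% (interval 27.0 to 33.2) of ATF2 sites on chromosome 16, the lowest share, and 44.3% (interval 38.6 to 50.2, 125 of 282) on chromosome X, the highest of the 20 chromosomes. With gaps of up to 20000 bp between neighbours, ATF2-only sites formed 6696 runs, of which 5428 were single sites and 288 held at least 3 sites, 988 in all. In 2 runs there were 9 sites each. At chr11:98747831-98781159 all 9 sites held a cofactor: untreated CBP at 7 and untreated p300 at 4, but neither in its rosiglitazone list, with NCOR at 2 sites untreated and 1 with rosiglitazone. At chr6:47701433-47746490 CBP was listed at 2 sites untreated and 0 with rosiglitazone, and p300 at 2 in each condition. The 2 runs were chosen for their length after the values were seen.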
